A study of Mus musculus with 24 samples.

Results

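The 35 genes described here are genes of B and T lymphocytes, chosen by symbol from a list: 25 genes of the B lineage or of lymphoid cells and 10 genes of T cells. They were followed across 24 microarrays of the distal femur, the knee end of the thigh bone, of C57BL/6J mice. All 35 were found among the 20889 genes of the score table used for bulk bone, and 34 among the 18052 genes of the intensity table used for sorted cells, which held no value for Cd79a.

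Sorted cells were skeletal stem cells, which give rise to cartilage, bone and stroma. They were selected for integrin alpha V and against 6C3, THY1, CD105, TIE2, TER119 and CD45, the surface protein that leukocytes share and that Ptprc encodes. They came from microfractured joints of adults aged 9 to 25 weeks (3 arrays), uninjured joints of adults of the same age range (3 arrays) and uninjured newborns at postnatal day 3 (4 arrays). Whole bone tissue, called bulk, gave 3 microfractured adult, 5 uninjured adult and 3 newborn arrays. Microfracture is an operation that perforates the bone under the joint cartilage. A further 3 arrays held sorted stem cells of microfractured adult joints that had received BMP2, a growth factor of bone, VEGFR1, or PBS as the control, with 1 array each. The labels do not say whether replicates were separate animals, or how long after surgery the joints were taken. The p-values below therefore measure the spread between these arrays, which may be technical.

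B lymphocytes are made in the bone marrow, which fills the adult femur, whereas T lymphocytes mature in the thymus and reach marrow and bone through the blood. A B cell precursor cuts and rejoins its antibody genes and tests the first chain as part of a precursor receptor, and later exposes a complete antibody as its antigen receptor. A mature T cell reads antigen through its own receptor, whose signal passes through the CD3 chains. Bone marrow fat and stromal cells also use some of these genes, of which Ebf1 is the best known.

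On the sorted arrays 28 of the 34 genes were lower in microfractured than in uninjured adult cells, where 26.0% of all genes were lower. With quantile normalization 12 of 34 were lower against 7.42% of all genes, and with median-centred arrays 16 of 34 against 9.23%. Above a common floor 1 of 8 was lower, against 3.91% of all genes tested there. In uninjured adult cells 27 of 34 were higher than in newborn cells, where 37.2% of all genes were higher. On the uninjured adult arrays 20 of the 34 genes never exceeded the level reached by smell receptor genes, which stem cells are not known to use. In bulk bone 0 of 35 genes passed the test between microfractured and uninjured adults, as did 0.0% of all genes. There 11 of 35, all from the B cell lists, were higher in uninjured adults than in newborns, where 3.42% of all genes were higher.

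The sorted arrays carried MAS5 intensity, a linear value per gene. Genes of olfactory and vomeronasal receptors, which serve smell, were used to gauge the low end of each array. The 95th percentile of these 63 receptor genes was 212.7, 157.3 and 56.5 intensity units on the microfractured arrays. It was 731.5, 392.8 and 477.6 on the uninjured adult arrays, and 135.6, 137.9, 90.1 and 67.6 on the newborn arrays. A gene was taken to be above the low end of an array when it exceeded this value there. The low end was thus higher on every uninjured adult array than on any other sorted array.

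Of the 34 lymphocyte genes, 4, 6 and 16 were above the low end on the microfractured arrays. The counts were 5, 12 and 6 on the uninjured adult arrays and 5, 7, 9 and 10 on the newborn arrays. On all arrays of at least 1 group 6 genes were above it. Cd24a and Ebf1 were above it on every array, Ms4a1 on all 3 uninjured adult arrays, Cd72 on all microfractured and newborn arrays, and Bach2 and Cd2 on all 4 newborn arrays. On the uninjured adult arrays 20 genes were never above it, and 11 genes were above it on no array of any group. As a check of the cell label, 10 of 10 skeletal genes (among them Col2a1, Runx2 and Pdgfra) were above the low end on all microfractured arrays, 8 of 10 on all uninjured adult arrays and 10 of 10 on all newborn arrays. Over all genes the shares were 47.4%, 18.7% and 54.0%. Genes of blood cells that the sort selects against were above it as well: on all uninjured adult arrays 6 of 10 pan-leukocyte, 8 of 13 myeloid and 4 of 7 erythroid genes, and on all microfractured arrays 4 of 10, 7 of 13 and 3 of 7. On all newborn arrays they were 0 of 10 pan-leukocyte, 6 of 13 myeloid and 2 of 7 erythroid genes.

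The first comparison asks what microfracture changes in adult stem cells. Of the B cell genes 7 of 8 early genes, 4 of 5 receptor and surface genes, 4 of 5 signalling genes and 5 of 6 regulators were lower after microfracture. Of the T cell genes 7 of 7 receptor and coreceptor genes and 1 of 3 signalling genes were lower. In all 28 of 34 genes passed as lower (82.4%) and 0 as higher, where 26.0% of all genes in the table passed as lower and 8.58% as higher. Tests were limma fits on log2(intensity + 16) over all 18052 genes with Benjamini-Hochberg adjustment and a threshold of 0.05. Differences are therefore log2 differences of intensity + 16. For a dim gene these are smaller than log2 differences of the intensity itself. Whether a difference under the low end reflects the gene's own RNA was not tested.

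The receptor genes moved the same way. The median difference was -1.78 over the lymphocyte genes, -1.69 over the receptor genes and -0.46 over all genes, and 31 of 63 receptor genes passed as lower and 0 as higher. Whether the raised low end of the uninjured adult arrays had a part in the calls of dim lymphocyte genes was not tested. In samples of many cells, fewer cells of a type and less RNA per cell cannot be told apart.

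**Figure D1:**
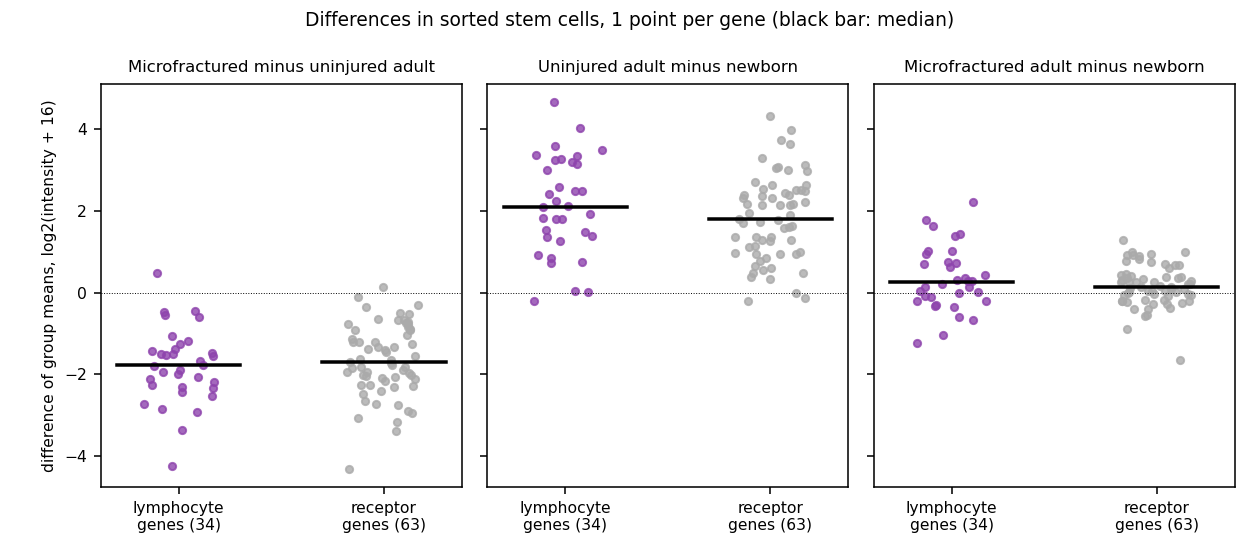
Differences of group means on the log2(intensity + 16) scale for the 34 lymphocyte genes and the 63 receptor genes in sorted stem cells, 1 point per gene, with a black bar at the median. The medians were -1.78 and -1.69 for microfractured minus uninjured adult, 2.10 and 1.79 for uninjured adult minus newborn, and 0.25 and 0.14 for microfractured adult minus newborn.

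Cd24a encodes a surface glycoprotein of immature lymphocytes that many other cells also carry. It read 3372, 4639.9 and 3755 intensity units in microfractured adult cells, 6119, 10325 and 8419 in uninjured adult cells, and 8447, 7691, 8000.5 and 7961 in newborn cells. The 3 microfractured values lay below all others, and the uninjured adult and newborn values overlapped. Cd24a fell by 1.06 ± 0.23 (limma standard error) after microfracture relative to uninjured adults (adjusted p = 0.00568) and by 1.04 ± 0.21 relative to newborns (adjusted p = 0.00269). Centring each array on its median ended the first of these calls (-0.40, adjusted p = 0.25).

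Ebf1, a transcription factor that commits cells to the B lineage, went the other way. It read 1358, 923 and 1105 in microfractured adult cells, 921.3, 823.4 and 665.7 in uninjured adult cells, and 363.8, 416.1, 436 and 455.3 in newborn cells. The 3 groups did not overlap, although the lowest microfractured and the highest uninjured adult value were nearly equal. The difference between microfractured and uninjured adults did not pass (0.48 ± 0.20, adjusted p = 0.0805). It passed with median-centred arrays (1.13, adjusted p = 0.002), where 26.2% of all genes passed as higher, against 8.58% as deposited. It also passed without microfractured replicate 2 (0.61, adjusted p = 0.0442). Ebf1 was 0.91 ± 0.19 higher in uninjured adults than in newborns (adjusted p = 0.00158), a call that median-centring ended (0.21, adjusted p = 0.414).

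Bach2, a repressor that holds back plasma cell formation, read 174.7, 122.6 and 125.3 in microfractured adult cells, 393.2, 361.1 and 319.5 in uninjured adult cells, and 298.9, 319.5, 402.1 and 384.3 in newborn cells. All microfractured values lay below all others. It fell by 1.26 ± 0.26 relative to uninjured adults (adjusted p = 0.00467), which did not hold with quantile normalization (-0.64, adjusted p = 0.106) or median-centring (-0.61, adjusted p = 0.0851). Bach2 was above the low end on 1 microfractured array and on no uninjured adult array.

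Ms4a1, which encodes the B cell surface protein CD20, read 176.7, 88.5 and 131.2 in microfractured adult cells, 1017, 527.9 and 622.9 in uninjured adult cells, and 105.5, 109.7, 25.6 and 33.2 in newborn cells. The uninjured adult arrays stood apart from both other groups, which overlapped. Ms4a1 fell by 2.31 ± 0.48 after microfracture (adjusted p = 0.00501). Cd2, an adhesion receptor of T and other lymphoid cells, read 155.3, 262.5 and 68.2 in microfractured adult cells, 475.3, 420.3 and 410.3 in uninjured adult cells, and 159.4, 214.5, 156.1 and 111.7 in newborn cells. Here too only the uninjured adult values stood apart (-1.50 ± 0.40 after microfracture, adjusted p = 0.0141), though 2 of them were under the low end of their own array.

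Dntt, the enzyme that adds random bases where antigen receptor genes are joined, was also lower after microfracture. It read 12.7, 16.1 and 6.04 in microfractured adult cells, 451.5, 571.3 and 473.6 in uninjured adult cells, and 20.2, 16.9, 16 and 9.96 in newborn cells. It fell by 4.23 ± 0.39 after microfracture (adjusted p = 0.000138). It was above the low end on 1 uninjured adult array and on no other array, so the size of its difference depends on the pseudocount: it was -5.40 with 1 and -2.89 with 64 in place of 16.

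Further genes with large falls after microfracture included Cd3g, a chain of the T cell receptor complex (-3.35 ± 0.50), Igll1, which encodes a part of the surrogate light chain of precursor B cells (-2.93 ± 0.64), and Pax5, the regulator that keeps B cell identity (-2.85 ± 0.57). The recombinase genes Rag1 and Rag2 fell too (-2.33 ± 0.48 and -1.90 ± 0.46), though neither was above the low end on any uninjured adult array. Cd3g, Igll1 and Pax5 were above it on 1 uninjured adult array each. Igll1, Rag1 and Rag2 lost their calls with quantile normalization and kept them with median-centring. Cd37, a tetraspanin of B cells, read 125.4 ± 49.9 in microfractured and 756.2 ± 283 in uninjured adult cells (SD, n = 3 each), and fell by 2.44 ± 0.43 (adjusted p = 0.00243, limma). The genes that did not pass were Ebf1, the kinase genes Btk, Lck and Zap70, Vpreb3, a gene of precursor B cells, and Cd72, an inhibitory coreceptor of B cells, with adjusted p between 0.0805 and 0.592.

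Which genes passed depended on how the arrays were brought to 1 scale. Quantile normalization, which forces the arrays to 1 distribution, left 12 of 34 genes lower and 0 higher, against 7.42% of all genes lower and 12 of 63 receptor genes lower. Median-centring, under which the median difference of all genes was 0.20 in place of -0.46, left 16 genes lower and 1, Ebf1, higher. Of all genes 9.23% passed as lower and 26.2% as higher, and 18 receptor genes passed as lower. The medians of the lymphocyte and receptor genes were -0.96 and -0.68 under quantile normalization and -1.12 and -1.03 under median-centring. On all 3 scales 11 genes passed as lower: Blk, Blnk, Cd37, Cd3d, Cd3g, Dntt, Ikzf1, Il7r, Ms4a1, Pax5 and Pou2af1. With all values raised to a common floor, the highest of the arrays' low ends (731.5), 8 genes could be tested and 1, Cd24a, passed. Over all genes tested there 3.91% passed as lower. A gene entered when any 1 array exceeded the floor. Il7r, Ms4a1, Cd37, Pou2af1, Ikzf1 and Cd3g exceeded it on uninjured adult arrays only, so the floor is no independent check of these genes.

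**Figure D2:**
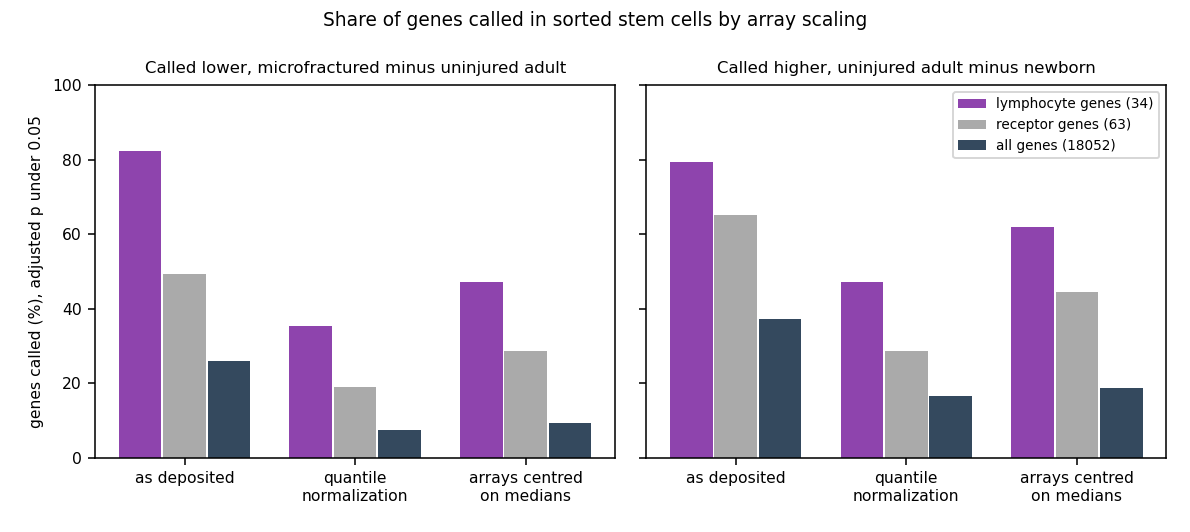
Share of genes that passed (%, adjusted p under 0.05) in sorted stem cells under 3 scalings of the arrays, for the 34 lymphocyte genes, the 63 receptor genes and all 18052 genes. Lower calls for microfractured minus uninjured adult were 82.4%, 49.2% and 26.0% as deposited and 35.3%, 19.0% and 7.42% after quantile normalization. Higher calls for uninjured adult minus newborn were 79.4%, 65.1% and 37.2% as deposited and 47.1%, 28.6% and 16.6% after quantile normalization.

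By rank within an array, which none of these 3 scalings changes, the median lymphocyte gene stood at percentile 29.7, 29.0 and 29.7 of all genes on the microfractured arrays and at 50.6, 51.9 and 46.8 on the uninjured adult arrays. It stood at percentile 24.6, 23.4, 22.6 and 21.2 on the newborn arrays. The median receptor gene stood at 14.2, 16.5 and 12.3 on the microfractured arrays, at 28.2, 20 and 21.5 on the uninjured adult arrays, and between 13.3 and 15 on the newborn arrays. Both sets thus ranked higher on the uninjured adult arrays than on the other sorted arrays.

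Genes of other blood cells moved with the same groups. All 10 of 10 pan-leukocyte genes, 12 of 13 myeloid genes, 7 of 7 erythroid genes and 8 of 10 natural killer and cytotoxic genes were lower after microfracture. Of the natural killer and cytotoxic genes 0 of 10 were above the low end on all uninjured adult arrays. The summed intensity of the pan-leukocyte genes was 1915 to 3257 in microfractured adult cells, 9599 to 10660.0 in uninjured adult cells and 624.5 to 886.6 in newborn cells. That of the myeloid genes was 12680.0 to 40580.0 in microfractured adult, 58260.0 to 97120.0 in uninjured adult and 3400.0 to 4474 in newborn cells. Ptprc, whose protein the sort selects against, averaged 650.9 ± 132 in microfractured and 3462 ± 367 in uninjured adult cells (SD, n = 3 each). Their part in the lymphocyte values was not tested.

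Other genes of the lineages, drawn from longer lists, behaved less evenly. Of 27 further B lineage genes 13 were lower and 1 higher after microfracture. Cd74, the chaperone of antigen presentation, averaged 213.3 ± 36.7 in microfractured and 817.9 ± 155 in uninjured adult cells and fell by 1.86 ± 0.30 (adjusted p = 0.0017, limma). Foxo1, a factor that many tissues use, was the 1 that rose (1.23 ± 0.17, adjusted p = 0.000998). Of 20 further T lineage genes 7 were lower, among them Themis, a gene of thymocyte selection (-2.62 ± 0.41), and Satb1, a chromatin organiser of thymocytes (-1.33 ± 0.23). Of 6 plasma cell genes 3 were lower and 2 higher, with the receptor gene Tnfrsf17 lower by 2.62 ± 0.50 and the regulator Prdm1 by 1.42 ± 0.35. On all uninjured adult arrays 4 of the 27 B lineage, 0 of the 20 T lineage and 1 of the 6 plasma cell genes were above the low end. Themis and Tnfrsf17 read at most 195.5 and 299.5 there, under the low end of every uninjured adult array.

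The second comparison set uninjured adult against newborn stem cells. Higher in adults were 6 of 8 early B genes, 4 of 5 receptor and surface genes, 4 of 5 signalling genes, 5 of 6 regulators, 7 of 7 T receptor and coreceptor genes and 1 of 3 T signalling genes. In all 27 of 34 genes passed as higher (79.4%) and 0 as lower, where 37.2% of all genes passed as higher and 15.7% as lower. The median difference was 2.10 over the lymphocyte genes, 1.79 over the receptor genes, of which 41 of 63 passed as higher, and 0.52 over all genes. This comparison uses the same uninjured adult arrays as the first, so the error of those arrays enters both.

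Cd37 was 4.65 ± 0.40 higher (adjusted p = 2.01e-06). It averaged 756.2 ± 283 in uninjured adult cells (SD, n = 3) and 13 ± 0.842 in newborn cells (SD, n = 4). Higher too were Dntt (4.02 ± 0.36), Pou2af1, the coactivator of octamer-binding factors in B cells (3.58 ± 0.30), Cd3g (3.48 ± 0.46) and Rag1 (3.36 ± 0.45). These 5 genes were above the low end on no newborn array, so the sizes and order of their differences depend on the pseudocount. Rag1 was above it on no uninjured adult array either. With a pseudocount of 1 Rag1 was 5.42 and Dntt 4.93 higher. Ms4a1 was 3.25 ± 0.45 higher (adjusted p = 9.52e-05) and Cd2 1.38 ± 0.38 higher (adjusted p = 0.00778). Cd24a and Bach2 did not pass (0.01 ± 0.21 and 0.03 ± 0.24), and median-centring, under which the median difference of all genes was -0.19 in place of 0.52, turned both to lower in adults (-0.69 and -0.67, adjusted p = 0.0329 and 0.0347). Cd72 did not pass on the deposited scale (-0.21) and passed as lower with median-centring (-0.91, adjusted p = 0.0238). Btk, Lck, Vpreb3 and Zap70 did not pass either.

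Quantile normalization left 16 of 34 genes higher, against 16.6% of all genes and 18 of 63 receptor genes. Median-centring left 21 higher and 3 lower, against 18.6% of all genes higher and 32.9% lower. Higher on all 3 scales were 14 genes: Blk, Blnk, Cd22, Cd37, Cd3g, Cd79b, Dntt, Fcrla, Ikzf1, Il7r, Ms4a1, Pax5, Pou2af1 and Rag1. Above the common floor 1 of 8 genes passed, Cd37, against 10.1% of all genes higher. Cd37 exceeded that floor on uninjured adult arrays only, so this call is no independent check. Of the further lists, 19 of 27 B lineage genes were higher in uninjured adults and 1 lower, and 8 of 20 T lineage genes were higher and 1 lower. Ighm, the gene of the first antibody heavy chain, averaged 1100 ± 307 in uninjured adult cells and 50.2 ± 28.3 in newborn cells (4.14 ± 0.53, adjusted p = 5.6e-05). All 10 pan-leukocyte genes, 12 of 13 myeloid genes and 10 of 10 natural killer and cytotoxic genes were higher as well, with Ptprc 5.58 ± 0.24 higher.

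The third comparison, microfractured adult against newborn stem cells, sets aside the means of the uninjured adult arrays, which enter the fit only through the shared spread. The low end still differed, being highest on microfractured replicates 1 and 2 (212.7 and 157.3) and lowest on microfractured replicate 3 (56.5). Of 34 genes 5 were higher in microfractured adults and 2 lower, where 11.8% of all genes were higher and 11.1% lower. The median difference was 0.25 over the lymphocyte genes, 0.14 over the receptor genes and 0.01 over all genes, and 0 of 63 receptor genes passed. The higher genes were 2 surface genes, Cd37 and Cd79b (a signalling chain of the B cell receptor), and 3 regulators, Ebf1, Pou2af1 and Ikzf1, the last a zinc finger factor of all lymphocytes. The lower genes were Cd24a and Bach2. No T cell gene passed.

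Ebf1 was 1.39 ± 0.19 higher in microfractured adults (adjusted p = 0.000117) and Cd37 2.22 ± 0.40 higher (adjusted p = 0.00113). Pou2af1 averaged 185.7 ± 32.5 in microfractured adult cells (SD, n = 3) and 42.6 ± 7.17 in newborn cells (SD, n = 4), and was 1.78 ± 0.30 higher (adjusted p = 0.000751). Ikzf1 averaged 189.3 ± 78.1 in microfractured adult and 61.3 ± 30.5 in newborn cells (1.42 ± 0.36, adjusted p = 0.0116), a call lost without microfractured replicate 1 (adjusted p = 0.0531). Cd79b (1.62 ± 0.45, adjusted p = 0.0174) lost its call with quantile normalization (adjusted p = 0.0683) and without newborn replicate 1, newborn replicate 3 or microfractured replicate 2 (adjusted p = 0.0527, 0.0541 and 0.0575). Bach2 fell by 1.23 ± 0.24 relative to newborns (adjusted p = 0.00212). Ebf1, Cd24a and Bach2 were above the low end on all newborn arrays, and Cd37, Cd79b, Pou2af1 and Ikzf1 on none of them. In this comparison 6 of 10 pan-leukocyte and 7 of 13 myeloid genes were also higher in microfractured adults, and 0 were lower.

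Bulk bone was measured as an activity score bounded at -100 and 100, whose computation is not given in the sources used here. Differences are therefore in score points and never folds, and a gene near a bound can move little further. Where a gene had several probe sets, the one of highest mean score over the bulk arrays stood for it. Of the 35 genes 17 had several probe sets.

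Between microfractured and uninjured adult bulk bone 0 of 35 lymphocyte genes and 0.0% of all genes passed (limma). Without adjustment 0 lymphocyte genes and 1951 of 20889 genes had p under 0.05. The median difference was -7.19 points over the lymphocyte genes and 2.09 over all genes. The groups did not overlap for 1 gene higher after microfracture, Cd3g, and 1 lower, Cd37, where 4.78% and 4.13% of all genes did so. Cd3g scored -5.15, -4.07 and -5.77 in microfractured and between -35.75 and -5.97, with a median of -11.25, in uninjured adult bone. Cd37 scored -21.02, -4.70 and -15.89 in microfractured and 60.69, -3.50, -2.48, 6.28 and 27.42 in uninjured adult bone. Neither difference passed (adjusted p = 0.873 for Cd3g and 0.646 for Cd37). The other probe set of Cd37 overlapped between the groups, at -7.29, -37.52 and -4.52 in microfractured and between -34.77 and 32.05 in uninjured adult bone.

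Between uninjured adult and newborn bulk bone, 11 of 35 genes passed as higher in adults (31.4%) and 0 as lower, where 3.42% of all genes passed as higher and 1.76% as lower. They were 4 of 8 early B genes, 2 of 6 receptor and surface genes, 4 of 5 signalling genes and 1 of 6 regulators, and 0 of 10 T cell genes. The groups did not overlap for 18 of 35 genes higher in adults, against 7.94% of all genes. The median difference was 44.49 points over the 35 genes and -1.81 over all genes.

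Promoters of 3 of these genes are shown because they belong to genes called here and hold letters of motifs known for B cell factors. They are the 250 bases before each start in the RefSeq promoter table (GRCm38.p6), 5′ to 3′ on the gene's own minus strand. Vpreb1 and Igll1, whose starts lie 5270 bases apart on chromosome 16, encode the paired parts of the surrogate light chain, and Blnk encodes the adaptor that carries the B cell receptor signal. Capitals mark the matches found on either strand.
Vpreb1, chr16:16869256-16869505: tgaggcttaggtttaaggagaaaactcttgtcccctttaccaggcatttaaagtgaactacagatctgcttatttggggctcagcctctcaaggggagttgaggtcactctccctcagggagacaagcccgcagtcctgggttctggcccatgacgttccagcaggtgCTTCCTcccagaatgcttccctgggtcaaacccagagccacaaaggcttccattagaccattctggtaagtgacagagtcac
Igll1, chr16:16863986-16864235: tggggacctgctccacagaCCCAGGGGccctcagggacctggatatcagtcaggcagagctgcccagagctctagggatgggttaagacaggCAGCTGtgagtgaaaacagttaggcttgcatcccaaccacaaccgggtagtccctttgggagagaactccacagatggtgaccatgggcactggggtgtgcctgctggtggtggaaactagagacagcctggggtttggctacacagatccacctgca
Blnk, chr19:40994222-40994471: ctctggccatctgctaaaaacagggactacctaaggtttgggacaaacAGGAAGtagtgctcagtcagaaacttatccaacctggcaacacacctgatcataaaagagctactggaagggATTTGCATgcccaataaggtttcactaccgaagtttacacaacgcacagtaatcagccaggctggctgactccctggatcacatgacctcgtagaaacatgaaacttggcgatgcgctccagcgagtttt
The capitals are an ETS core in Vpreb1, an EBF1 core and then an E-box in Igll1, and an ETS core and then an octamer in Blnk.

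Of the 35 genes 28 had a promoter in that table, as did 10 of the 11 genes called in bulk bone. Of the 28, 4 had several starts, and a gene counts as holding a motif when any of its promoters does. Searched on both strands, the EBF1 core CCCNNGGG was found for 5 of the 28 genes and 3 of the 10, and for 13.4% of all 27018 genes. The ETS core AGGAAG was found for 16 and 7, and for 32.3% of all. The octamer ATGCAAAT was found for 2 and 1 (1.81% of all), the E-box CAGCTG in 2 and 1 (14.7%), and the IKAROS core TGGGAA in 11 and 0 (24.1%). No hit of 1 motif was required to be clear of another, and a match describes letters, not binding.

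Vpreb1 scored 82.03, 79.54 and 78.65 in microfractured adult bone, 83.10, 80.43, 80.96, 80.78 and 76.33 in uninjured adult bone, and -16.85, -5.68 and -8.32 in newborn bone. All adult values lay far above all newborn values. It was 90.6 ± 8.91 points higher in uninjured adults than in newborns (adjusted p = 0.000617).

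Igll1 scored 94.44, 99.54 and 94.44 in microfractured adult bone, 83.37, 97.77, 94.40, 93.85 and 92.48 in uninjured adult bone, and 54.90, 42.23 and 75.67 in newborn bone. Adult values were near the upper bound (34.77 ± 7.70 against newborns, adjusted p = 0.0267). A second probe set of Igll1 scored -69.91, -19.61 and -59.01 in microfractured adult bone, between -11.38 and 89.98 in uninjured adult bone and between -99.07 and -62.76 in newborn bone, so its microfractured values lay below its uninjured ones.

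Dntt scored 98.45, 100 and 96.90 in microfractured adult bone, 93.14, 99.78, 99.34, 98.67 and 93.81 in uninjured adult bone, and 11.73, -76.27 and -83.51 in newborn bone. The newborn values were low but uneven (146.3 ± 18.83 in uninjured adults against newborns, adjusted p = 0.00247). A second probe set of Dntt also stood clear, at 49.73 to 63.99 in uninjured adult and -4.42 to -1.32 in newborn bone. A further one overlapped, at -15.55 to 28.16 in microfractured adult, -1.65 to 30.83 in uninjured adult and -99.91 to -1.61 in newborn bone. Fcrla, a gene of an Fc receptor-like protein inside B cells, scored 99.72, 100 and 80.68 in microfractured adult bone, 66.76, 100, 98.86, 100 and 88.07 in uninjured adult bone, and -6.99, -0.96 and -14.64 in newborn bone. The adult groups overlapped each other and stood clear of newborns (98.27 ± 10.56, adjusted p = 0.00102).

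Il7r encodes the receptor for interleukin 7, a growth signal of lymphocyte precursors. It scored 12.58, 59.59 and 42.77 in microfractured adult bone, 30.14, 54.01, 50.69, 57.65 and 54.24 in uninjured adult bone, and -88.90, -21.38 and -21.44 in newborn bone. Every adult value was above 0 and every newborn value below it (93.25 ± 19.99, adjusted p = 0.0232). Its second probe set overlapped between the groups, at -4.56 to -2.99 in microfractured adult, -4.09 to 7.07 in uninjured adult and -8.29 to -0.83 in newborn bone.

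Among the signalling genes, Blnk scored -6.15, 45.53 and 38.48 in microfractured adult bone, 52.27, 67.11, 33.45, 57.73 and -32.62 in uninjured adult bone, and -88.52, -59.07 and -75.30 in newborn bone. Uninjured replicate 5 was the low adult value (109.88 ± 24.44, adjusted p = 0.0273). Blk, a B cell kinase, scored -10.35, -6.57 and -3.03 in microfractured adult bone, 29.07, -1.40, -16.85, -2.16 and -1.50 in uninjured adult bone, and -81.64, -62.62 and -65.25 in newborn bone. Most adult values of Blk were below 0 too (71.27 ± 14.34, adjusted p = 0.0178).

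Bank1, a scaffold of B cell signalling, scored -3.23, 39.75 and 26.55 in microfractured adult bone, 14.71, 54.45, 54.85, 51.11 and 37.28 in uninjured adult bone, and -87.10, -24.61 and -29.02 in newborn bone. The adults did not overlap the newborns (89.39 ± 20.11, adjusted p = 0.0289). Cd72 scored 3.14, 39.89 and -0.64 in microfractured adult bone, 53.95, 58.06, 47.25, 52.87 and 37.12 in uninjured adult bone, and -28.96, -52.09 and -13.10 in newborn bone. The 2 adult groups overlapped only through microfractured replicate 2 (81.23 ± 16.50 in uninjured adults against newborns, adjusted p = 0.0187).

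Cd37, whose adult scores are given above, scored -87.89, -50.02 and -94.92 in newborn bone, below every adult array (95.29 ± 18.89, adjusted p = 0.0169). On its other probe set newborn replicate 2 (-34.45) was above microfractured replicate 2 (-37.52) and uninjured replicate 2 (-34.77). Ikzf1 scored 22.99, 71.19 and 89.28 in microfractured adult bone, -2.67, 50.41, 58.76, 78.71 and 56.70 in uninjured adult bone, and -74.24, -14.87 and -89.85 in newborn bone. Its adult values were spread widely but above those of newborns (108.04 ± 25, adjusted p = 0.0331).

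The count depended on single arrays. It was 5 of 35 without uninjured replicate 2 or without newborn replicate 1, and 6 without uninjured replicate 3, uninjured replicate 4 or newborn replicate 3. Over all 20889 genes 715 passed as higher with every array. Without uninjured replicates 2, 3 and 4 in turn 456, 422 and 432 did so, and without newborn replicate 3 481. Without newborn replicate 1 the count over all genes rose to 791. Vpreb1, Dntt and Fcrla passed with any 1 array left out. The probe set that stood for Ebf1 scored between 93.43 and 99.96 on every bulk array, near the upper bound.

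**Figure D3:**
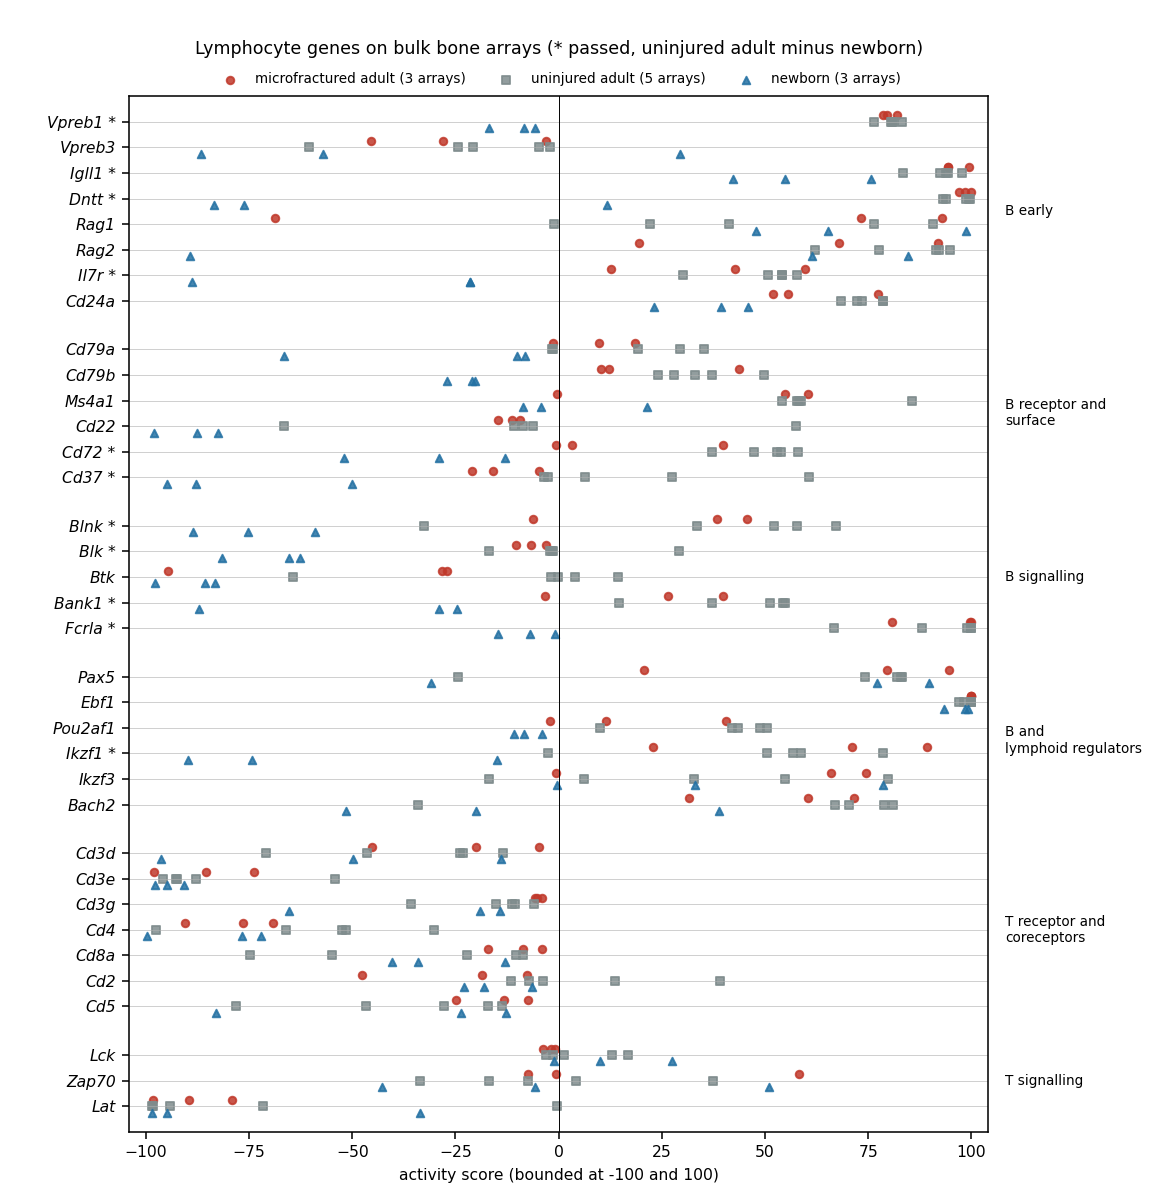
Activity score (-100 to 100) of the 35 lymphocyte genes on each bulk bone array, for microfractured adult, uninjured adult and newborn bone. Points are single arrays and an asterisk marks the 11 genes that passed as higher in uninjured adults than in newborns. Newborn points of Vpreb1, Dntt and Fcrla lie left of all adult points.

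In the same comparison 7 of 27 further B lineage genes were higher in uninjured adults, among them the transcription factor genes Bcl11a (109.29 ± 12.53) and Myb (82.26 ± 14.64), and 0 of 20 further T lineage genes. Higher too were 8 of 10 pan-leukocyte, 7 of 13 myeloid and 7 of 9 erythroid genes. The mean score of the pan-leukocyte genes was 19.12 to 24.79 in microfractured adult, 28.65 to 42.59 in uninjured adult and -47.22 to -32.83 in newborn bone. Their part in the lymphocyte values was not tested.

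Microfractured adult against newborn bulk bone gave 3 of 35 genes higher and 0 lower, where 1.06% of all genes were higher and 0.546% lower. They were Dntt (147.8 ± 21.05, adjusted p = 0.00839), Vpreb1 (90.36 ± 9.96, adjusted p = 0.00241) and Fcrla (101.0 ± 11.81, adjusted p = 0.00295), all from the B cell lists. The groups did not overlap for 18 of 35 genes higher in microfractured adults than in newborns, against 10% of all genes. The newborn arrays are shared with the comparison before. The calls were lost with the 2 groups fitted alone (0 of 35), a fit in which 0 of 20889 genes passed.

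The factor arrays asked what BMP2 and VEGFR1 change in stem cells of microfractured joints, and with 1 array each they allow no test. The median score of the 35 genes was -85.98 with BMP2, -85.68 with VEGFR1 and -80.09 with PBS, and 32 of 35 genes scored below 0 on each array. The 3 above 0 were Igll1 (78.82 with BMP2, 77.22 with VEGFR1, 79.73 with PBS), Cd24a (11.96, 12.46 and 19.1 in that order) and Ebf1 (99.27, 99.53 and 99.85). The second probe set of Igll1 was below 0 on the same arrays, at -68.92 with BMP2, -90.71 with VEGFR1 and -67.72 with PBS.

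Between BMP2 and PBS 0 of 35 genes differed by 50 points or more, where 5.28% of all genes were that much higher and 6.35% lower. Between VEGFR1 and PBS 1 gene was that much higher and 0 lower, where 5.46% and 5.25% of all genes were. That gene was Dntt, at -18.26 with VEGFR1 and -87.79 with PBS. A second probe set of Dntt scored -21.28 with VEGFR1 and -14.46 with PBS, and a further one -45.04 with VEGFR1 and -29.18 with PBS, so the difference was not shared by the gene's other probe sets. On the common score scale all 3 factor arrays were below every microfractured bulk array for 27 of 35 genes (77.1%), against 32.9% of all genes. Sorted cells and whole bone differ in preparation, so sorting and tissue cannot be told apart here.

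**Figure D4:**
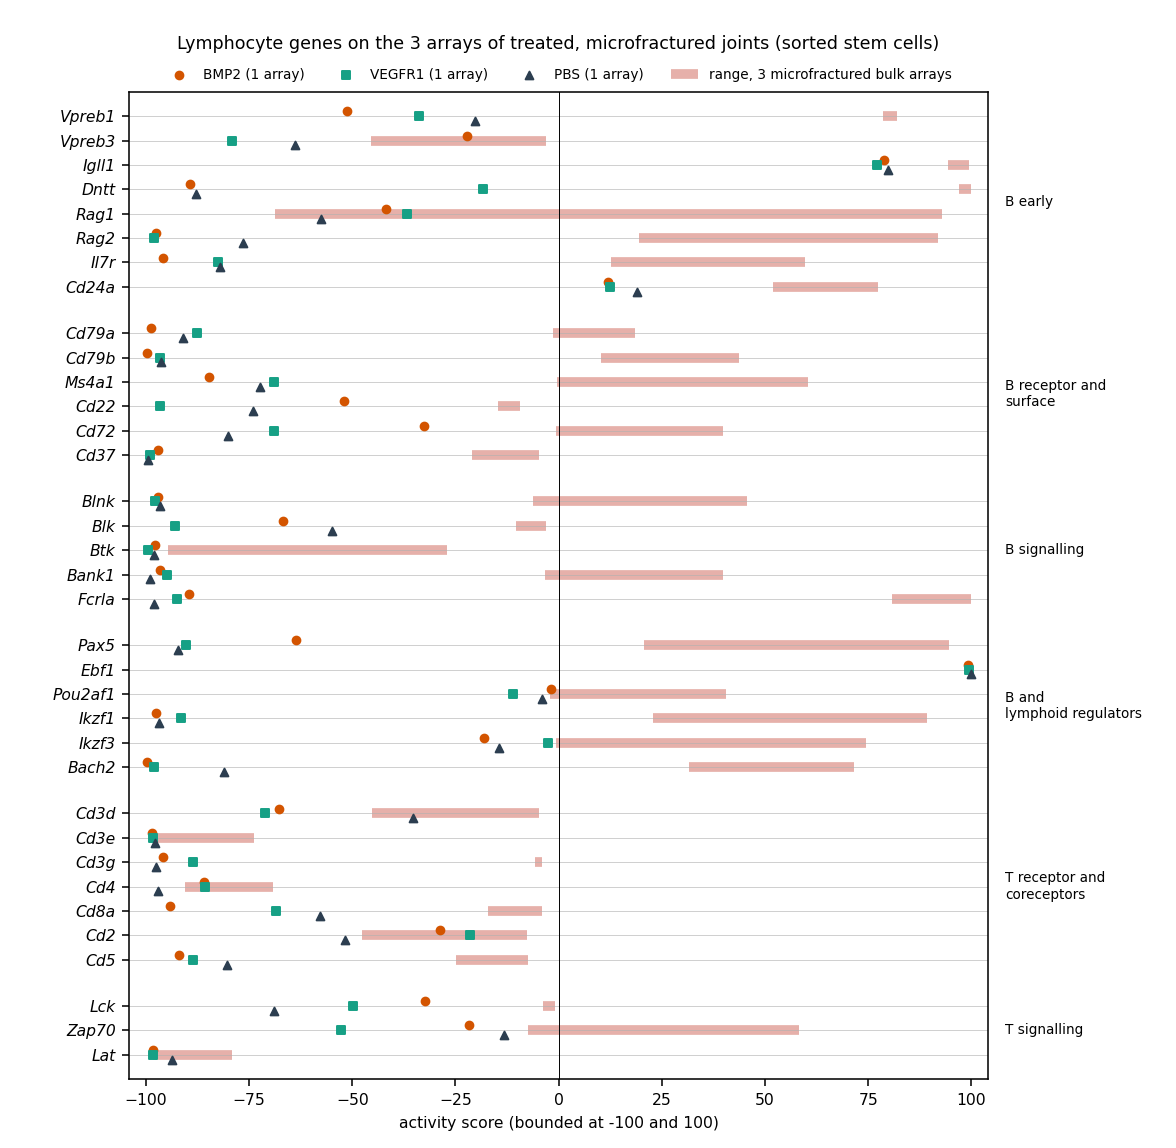
Activity score of the 35 lymphocyte genes on the BMP2, VEGFR1 and PBS arrays (points, 1 array each), with bars spanning the 3 microfractured bulk arrays. The points lie below the bar for 27 of 35 genes, and the 3 genes whose plotted probe set is above 0 are Igll1, Cd24a and Ebf1. Igll1's other probe set, which is not plotted, was below 0 on all 3 arrays.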

How the data were processed

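Sorted-cell values were MAS5 intensity per gene as deposited by the authors, with MAS5 named in the submitters' processing notes. RNA was amplified in 2 rounds, per the labels' protocols. Bulk and factor arrays carried an activity score deposited by the authors, and how it was computed is not given in the sources used here. Each bulk gene took its probe set with the highest mean. Intensities were tested as log2(intensity + 16) and scores as deposited, with limma 3.58.1 in R 4.3.3 (trend, 2-sided, no filter), all groups of a table in 1 fit and Benjamini-Hochberg adjustment over all genes. The fits were tested on simulated data. Trimmed means were 490.3 to 494.9 on every sorted array. The number of arrays limits the precision. The genes and lists were chosen with earlier results of these data known. Array values are given for genes above the low end throughout a sorted group that passed there, and for genes passing in bulk; other lists name the 2 genes of smallest p, plus Ptprc.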

Additional observations from a re-analysis of the deposited data

Results flagged for a closer look

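Single arrays far from the rest of their group were found in 10 of 69 gene and group combinations, and chance alone marks about 1 in 20. The 69 are the 34 genes in newborn sorted cells and the 35 in uninjured adult bulk bone. Groups of 3 arrays were not screened. In newborn sorted cells these were Lck on replicate 1 (62.71 intensity units) and Zap70 on replicate 4 (9.15), 2 kinase genes of T cell receptor signalling. In uninjured adult bulk bone replicate 5 stood apart for Ms4a1 (85.58 points), Btk (-64.39), Pou2af1 (9.95) and Bach2 (-34.09), replicate 1 for Il7r (30.14), Cd3e (-54.09) and Lat (-0.42), and replicate 4 for Pax5 (-24.32).

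Sorted cells and the bulk probe set used here differed in opposite directions for 2 genes, with no overlap between groups in either, and the difference between them was not tested. After microfracture relative to uninjured adults, Cd3g differed by -3.35 on the log2 scale in sorted cells and by 10.7 points in bulk, where it did not pass (adjusted p = 0.873) and the nearest values were -5.77 in microfractured and -5.97 in uninjured adults. For microfractured adults relative to newborns, Cd24a differed by -1.04 on the log2 scale in sorted cells and by 25.55 points in bulk, where it did not pass. The other probe sets of Cd24a ran the sorted-cell way in bulk: one read 19.47, 31.89 and 24.20 in microfractured adults against 79.14, 88.69 and 37.73 in newborns. The remaining one read 15.67, 33.59 and 16.52 against 27.48, 72.09 and 20.16, with overlap.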

How the results depend on the processing

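Of the 34 genes on sorted arrays, those passing between microfractured and uninjured adults numbered 28, and 12 with quantile normalization, 17 with median-centring, 15 of 18 after a filter on 3 arrays above the median (all genes: 2153 of 10893 lower), 6 of 8 after a filter on the mean (all genes: 1228 of 9145 lower), and 1 of 8 above the common floor. Between uninjured adults and newborns they numbered 27, and 16 with quantile normalization. With those filters they numbered 14 of 18 and 5 of 8 (all genes: 3202 of 10893 and 2077 of 9145 higher). Above the floor 1 of 8 passed (all genes: 658 of 6499 higher). In the same comparison median-centring left 21 higher and 3 lower, reversed Cd24a (-0.69) and Bach2 (-0.67), and made Cd72 pass as lower (-0.91). The 3 uninjured adult arrays can suffice for a dim gene to pass either filter or to enter the floor test. This makes those counts no independent check. Between microfractured adults and newborns the floor left 2 of 8 in place of 7 (all genes: 1896 of 6499 in place of 4131 of 18052). The filters and the floor test fewer genes; the cause of the other changes was not tested. In bulk bone the 11 genes between uninjured adults and newborns became 7 with the 2 groups fitted alone (all genes higher: 715 became 532). The 3 between microfractured adults and newborns became 5 with the filter on the mean, 5 without the trend and 0 with the 2 groups alone. Over all genes the 221 higher became 202 of 10709, 307 of 20889 and 0 of 20889 in that order. With the replicate block, 28, 26 and 7 genes passed in the 3 sorted comparisons in the order above, and 0 in each bulk comparison. Over all genes 5937, 8346 and 3459 of 18052 passed with the block in sorted cells, and 0 in each bulk comparison. The labels do not say whether same-numbered arrays are pairs. Their deviations from the group means correlated between -0.052 and 0.233 in sorted cells and between -0.207 and 0.105 in bulk. Differently numbered arrays were not compared in this way, so these values cannot settle pairing. For the factor arrays, the probe set with the highest mean over those arrays gave 1 of 35 genes lower for BMP2 and 0 for VEGFR1. That gene was Il7r (-76.02 with BMP2 and -22.24 with PBS). The share of all genes under that choice is not given here. With the probe sets used above, 6.35% of all genes were at least 50 points lower with BMP2. The mean of all probe sets gave 0 for VEGFR1. Leaving out 1 array gave 21 to 28, 25 to 27 and 6 to 7 genes in the sorted comparisons, and 0 to 0, 5 to 13 and 3 to 4 in bulk for microfractured against uninjured adults, uninjured adults against newborns and microfractured adults against newborns. Over all genes it gave 3155 to 7114, 8038 to 10107 and 3218 to 4337 in sorted cells. In bulk it gave 0 to 112, 642 to 1173 and 112 to 575 over all genes.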
